A study of Mus musculus with 4 samples.

Results

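Oxidative phosphorylation is carried out by 5 protein complexes of the inner mitochondrial membrane. Complexes I and II pass electrons from NADH and succinate to coenzyme Q, complex III passes them on to cytochrome c, and complex IV (cytochrome c oxidase) hands them to oxygen, while complex V (ATP synthase) makes ATP from the proton gradient that complexes I, III and IV build. Most subunits are encoded in the nucleus and a small set in mitochondrial DNA, and several subunits of complex IV exist as a common form and as forms restricted to testis, muscle, lung or cells short of oxygen. Naive and primed pluripotent cells are known to differ in respiration, which is why these transcripts were followed from embryonic stem cells to the primed state. The genes described here were the ones whose gene name on the array begins with Nduf, Sdha to Sdhd, Uqcr, Cox4 to Cox8 or Atp5. The rule used names alone and no measured value. It gave 128 of 55122 usable probes and 92 of 36039 genes.

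Transcripts were measured on 4 single-colour Agilent arrays, with 1 array per group and RNA from 3 sets of experiments pooled on each, so every value below has n = 1 and no biological error. All groups came from the mouse embryonic stem (ES) cell line E14Tg2A of strain 129/Ola, a single established line that carries no transgene named in the labels. The ES group was untreated at day 0, grown on gelatin in medium with serum and LIF. The ELA group (epiblast-like aggregates, a model of the primed state) was untreated and had floated for 2 days in defined serum-free medium, so that ES and ELA differ in medium, growth factors and attachment as well as in state. The AZA group was ELA formed with 50 nM 5-azacytidine, an inhibitor of DNA methylation, and the CHQ group was ELA formed with 100 µM 5-carboxy-8-hydroxyquinoline, an inhibitor of histone lysine demethylases. The ES and ELA arrays lay on 1 slide and the AZA and CHQ arrays on another. Of the 4 comparisons made, ELA with ES and CHQ with AZA were therefore within a slide, whereas each treatment against the ELA control crossed slides, and there slide and treatment cannot be told apart.

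By their brightest probes all 7 naive markers (such as Nanog and Esrrb) were lower in ELA than in ES, although a second probe of Nanog gave 0.23 beside -2.50, with a median log2 difference of -3.04, and all 4 primed markers were higher, with a median of 0.93 (0.38 with the spike-in scaling described below), although only Fgf5 and Dnmt3b were higher by more than 1 log2 unit. The slides differed in quality: the first had a local background of 59 (ES) and 77 (ELA) intensity units at the median and the second one of 14 (AZA) and 13 (CHQ), and 60.6%, 55.1%, 69.1% and 69.2% of gene spots stood well above it, in that order. Repeated spots of one probe within an array differed by a pooled SD of 0.15 log2 units, a spread that covers spotting and reading only and gives a difference between single spots an SD of 0.21. Levels are log2 intensities after background correction and quantile normalisation, and 1 log2 unit is a 2-fold difference.

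The 92 genes comprised 82 subunits, 6 assembly factors (proteins that help build a complex without staying in it) and 4 genes that share only the name stem. By complex, the subunits numbered 36 for complex I, 4 for complex II, 8 for complex III, 19 for complex IV and 15 for complex V. Ndufa4 and Ndufa4l2 were counted in complex IV, where the Ndufa4 protein is now known to sit, although they are named after complex I. The genes that share only the stem were Cox4nb (now Emc8, an endoplasmic reticulum membrane protein), Atp5s and Atp5sl (now Dmac2l and Dmac2) and Cox7a2l, a factor of respiratory supercomplexes. On all 4 arrays 90 of the 92 genes were well above background, and the exceptions, Cox6a2 and Cox8b, are muscle-type subunits of complex IV.

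Short stretches of 2 probes and of a few promoters are shown first, the probes because Ndufa4l2 and Cox6b2 differed most among the 92 genes, and the promoters to compare a common subunit with tissue-restricted forms. The probes are 60 bases long, and their first 30 bases are printed 5′ to 3′ as in the deposited files with their mm9 positions, Ndufa4l2 at chr10:126954149-126954178 on the plus strand and Cox6b2 at chr7:4703518-4703547 on the minus strand.
Ndufa4l2 probe: tgtccctggggatcaaacagaagcagccgt
Cox6b2 probe: ggaactttcccgggcaaaatatgaccttgc

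Promoter sequence from RefSeq (assembly GRCm38.p6, 250 bases before to 50 after the start site) was found for 76 of the 92 genes. The stretch upstream of the start site is shown for Cox6b2 (chr7:4753095-4753344, minus strand) and Cox7b2 (chr5:71548206-71548455, minus strand). These are testis-type isoforms that were higher than in ELA on both the AZA and the CHQ array. It is also shown for the common counterpart Cox6b1 (chr7:30626115-30626364, minus strand), which was not. The capitals mark CG, the dinucleotide that DNA methyltransferases modify, and the last capital of Cox6b1 opens a CG that crosses the start site.
Cox6b2 promoter: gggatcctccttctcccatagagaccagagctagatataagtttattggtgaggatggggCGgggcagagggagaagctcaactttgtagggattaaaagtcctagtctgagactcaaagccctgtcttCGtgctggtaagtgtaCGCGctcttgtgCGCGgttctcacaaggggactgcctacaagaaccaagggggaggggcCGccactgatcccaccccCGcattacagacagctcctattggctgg
Cox7b2 promoter: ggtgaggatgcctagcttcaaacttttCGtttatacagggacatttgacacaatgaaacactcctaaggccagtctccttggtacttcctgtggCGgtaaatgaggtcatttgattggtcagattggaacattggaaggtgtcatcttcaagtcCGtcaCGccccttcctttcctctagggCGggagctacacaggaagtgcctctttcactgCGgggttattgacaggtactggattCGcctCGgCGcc
Cox6b1 promoter: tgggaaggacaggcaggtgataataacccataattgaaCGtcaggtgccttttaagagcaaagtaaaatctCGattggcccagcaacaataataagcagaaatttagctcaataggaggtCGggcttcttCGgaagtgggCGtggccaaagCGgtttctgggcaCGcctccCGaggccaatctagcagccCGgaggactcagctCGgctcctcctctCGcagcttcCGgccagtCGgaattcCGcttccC

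These stretches held 8 CG in Cox6b2, 9 in Cox7b2 and 14 in Cox6b1. The same stretch of Cox7a1, a muscle form called higher with AZA and not with CHQ in the main setting, held 4. A link between CG number and the differences was not tested. Over the whole 300-base windows, the median number of CG was 20 for the 63 common subunits with a promoter, 8.5 for the 4 tissue-restricted isoforms with one (Cox6b2, Cox7a1, Cox7b2 and Cox8b) and 8 for all 27025 genes. The common subunits also held a match to the 10-letter consensus of NRF1, a transcription factor long linked to respiratory genes, on either strand in 17 of 63 promoters, or 27.0%, against 5.19% of all genes. That consensus and the ETS sequence given next contain CG, and the shares among promoters equally rich in CG were not computed. The ETS sequence CCGGAAG was found in 16 of them (25.4%, against 9.93% of all genes) and the YY1 sequence AAGATGGC in 10 (15.9%, against 3.19%). The ERR sequence TCAAGGTCA was in 2 (3.17%, against 0.466%), and the hypoxia response sequence ACGTG in 15 (23.8%, close to the 21.8% of all genes). Of the 4 tissue-restricted isoforms 2 held ACGTG, and none held the others, which says only that these letters are not in those windows. The promoter of Sdha, whose protein is the flavoprotein of complex II (chr13:74350241-74350370, minus strand), is shown with its NRF1 matches in capitals, 3 of them within 130 bases.
Sdha promoter: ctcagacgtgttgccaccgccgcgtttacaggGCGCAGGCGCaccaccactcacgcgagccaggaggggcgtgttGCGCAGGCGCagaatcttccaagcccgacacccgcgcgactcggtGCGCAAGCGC

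The first comparison set the primed ELA against the ES cells they came from. In the main setting no gene of the 92 passed the size rule, which asked for a log2 difference of at least 1, a mean level of at least 7.5 and a signal well above background on at least 1 array. Of the 89 genes that could be called, 0 were called higher, where 4.45% of all 18947 genes were, and 0 lower, where 5.59% of all genes were. At a log2 difference of 0.5, 1 gene was higher (13.1% of all genes) and 1 lower (15.2% of all genes). Those were Ndufa4l2, a form of Ndufa4 induced when oxygen is short, at 0.58, and Cox7b2 at -0.88. The other 87 genes, or 97.8%, each differed by less than 0.5 between the ELA and ES arrays. Over all genes that share was 71.7%. Among the 3061 bright genes, with a mean level of at least 14, the range in which most subunits lie, it was 88.4%.

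Within that band the genes leaned downwards in ELA. The median log2 difference of the 89 genes was -0.13 (quartiles -0.22 and 0.03), beside a median of -0.02 over all genes, and 62 were lower and 27 higher. The lean was clearest in complex IV. Each of its 11 common subunits was lower in ELA, from -0.07 for Cox7a2 to -0.47 for Cox4i1, the common form of the subunit through which the complex is regulated by ATP, with a median of -0.22. The medians of the other complexes were -0.04 for complex I, 0.03 for complex II, -0.13 for complex III and -0.09 for complex V. The lower end of complex III was held by Uqcr10, a small accessory subunit, at -0.48 and by Uqcrq at -0.40, and that of complex I by Ndufb6 at -0.46. At the upper end, Ndufv3, an accessory subunit beside the NADH-binding site, was at 0.33, and Atp5d, the delta subunit of the ATP synthase rotor, was at 0.18. The assembly factor Ndufaf4 was lower in ELA by -0.48 and Ndufaf3, its partner in complex I assembly, higher by 0.41.

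Scaling the arrays to the Agilent E1A spike-in RNA in place of the quantiles moved the median over all genes to -0.61 and that of the 89 genes to -0.79. In that setting 11 of the 89 genes passed the size rule, all lower and Cox4i1, Uqcr10, Ndufb6 and Uqcrq among them, where 19.8% of all genes were lower. At the 75th percentile 1 did, Cox7b2, where 7.44% of all genes were lower. With the spike-in, complex II was again the highest, at -0.66, and complex IV the lowest, at -0.90.

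**Figure D1:**
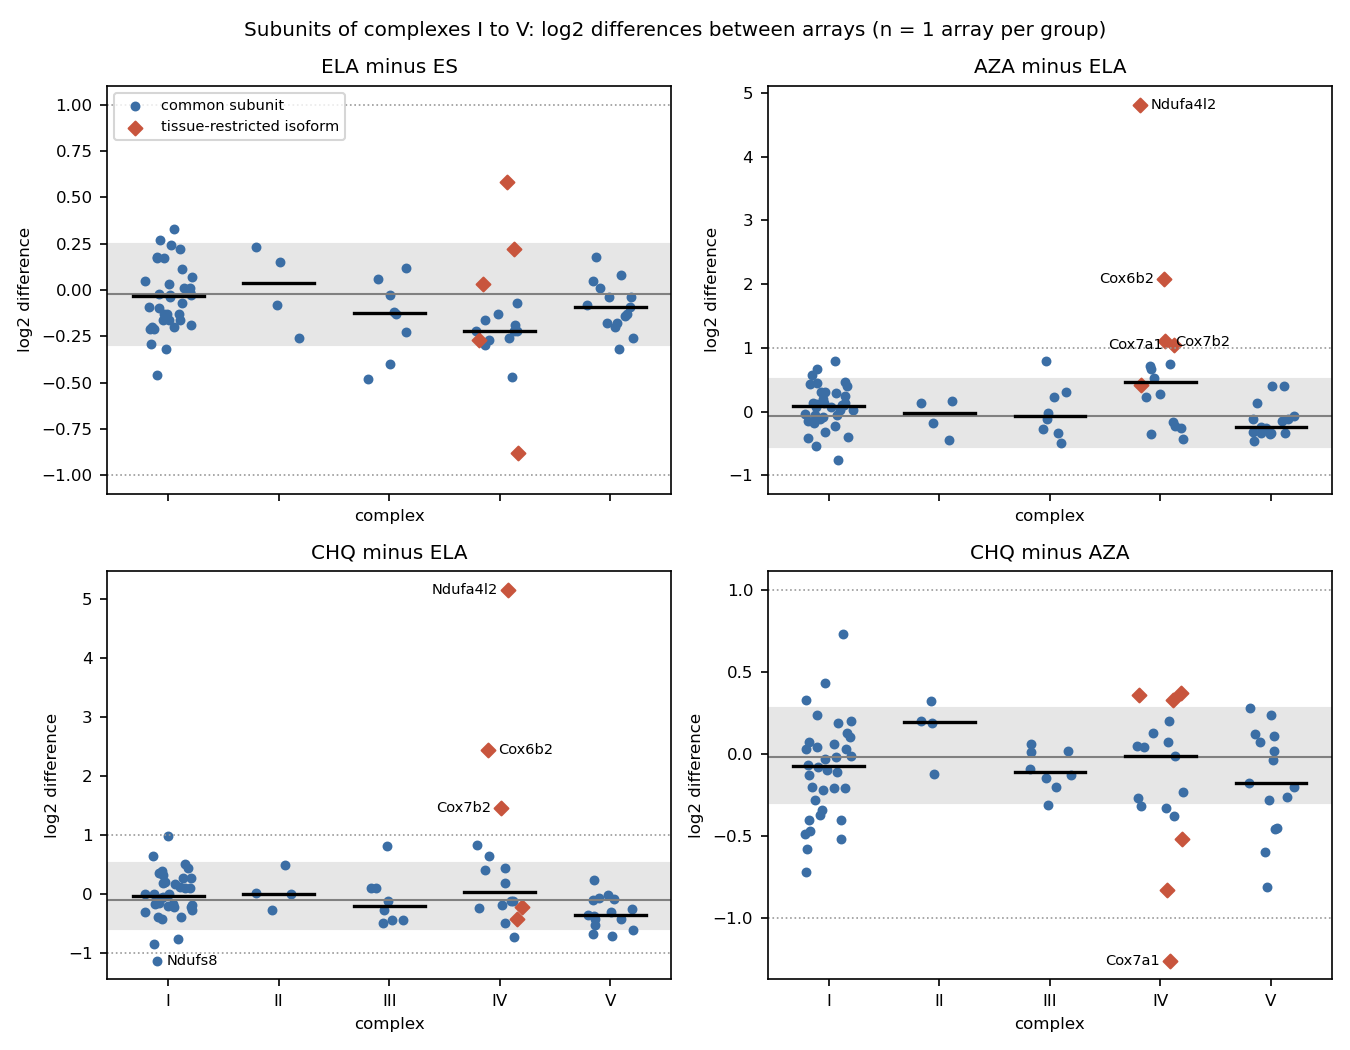
Each point is 1 subunit, placed by complex on the horizontal axis and by its log2 difference between 2 arrays on the vertical axis, for the 4 comparisons. Blue circles are common subunits and red diamonds tissue-restricted isoforms, black bars are medians of all subunits of a complex, the grey band and line are the quartiles and median over all genes, and dotted lines mark a difference of 1; 1 subunit that enters the medians is not drawn. In ELA against ES all points lie within the dotted lines, and in both treatments Ndufa4l2 stands above all others.

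The second comparison asked what the inhibitor of DNA methylation did to these transcripts in ELA. On the AZA array 5 of 89 genes were called higher, where 14.3% of all genes were, and 1 lower, where 11.4% of all genes were. The split was 4 higher and 3 lower at the 75th percentile, where 15.4% of all genes were higher and 15.6% lower. With the spike-in scaling it turned to 2 higher and 4 lower, with Atp5g3, Cox4nb and Sdhaf2 added to the lower calls, beside 12.3% and 15.3% of all genes in that setting. Those called higher were Ndufa4l2, Cox6b2, Cox7b2 and Cox7a1, all tissue-restricted forms placed in complex IV, and Sdhaf1, an assembly factor of complex II. The other genes were again close to the control. The median over the 89 genes was 0.03 beside -0.07 for all genes, an order that turned at the 75th percentile (-0.30 beside -0.20) and with the spike-in (-0.28 beside -0.26). In the main setting 78.7% lay within 0.5, against 47.6% of all genes and 70.9% of the bright ones. At a difference of 0.5, 13 genes were higher (25.2% of all genes) and 6 lower (27.1% of all genes).

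The third comparison asked the same of the inhibitor of histone demethylases. On the CHQ array 4 of 89 genes were called higher, where 14.8% of all genes were, and 4 lower, where 11.9% of all genes were. The split was 4 higher and 14 lower at the 75th percentile, where 15.4% of all genes were higher and 19.2% lower, and 3 higher and 23 lower with the spike-in, where 10.8% and 22.7% were. In the main setting, higher were Ndufa4l2, Cox6b2, Cox7b2 and Sdhaf1, and among the lower were Ndufs8, the assembly factor Sdhaf2 and Cox4nb, which is no respiratory protein. The median was -0.09, as it was over all genes, but at the 75th percentile it was -0.63 beside -0.25 for all genes and with the spike-in -0.73 beside -0.41. In the main setting, within 0.5 lay 74.2% of the genes, against 45.0% of all genes and 63.6% of the bright ones. At 0.5, 10 genes were higher (25.8% of all genes) and 13 lower (29.2% of all genes). Both treatments were compared with the same ELA array, so the calls they share rest in part on that array.

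The CHQ and AZA arrays, which share a slide, were set against each other last. Of 90 genes 0 were called higher in CHQ, where 5.53% of all genes were, and 1 lower, where 4.81% of all genes were. That gene was Cox7a1. At 0.5, 1 gene was higher in CHQ (15.4% of all genes), the complex I accessory subunit Ndufa10 at 0.73, and 10 were lower (14.8% of all genes). The median was -0.06 beside -0.02 for all genes. Fewer cells of a kind and less RNA per cell cannot be told apart in such bulk RNA, here or in any comparison above.

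Ndufa4l2 gave the widest difference of the 92 genes. Its protein is a paralogue of Ndufa4 and is known as a target of HIF-1 that restrains respiration. Its probe lies at chr10:126954149-126954208 (mm9). Its log2 level was 9.1 in ES, 9.68 in ELA, 14.51 in AZA and 14.83 in CHQ. The gene was thus low on both arrays of the first slide and high on both arrays of the second, and ES and ELA differed by only 0.58. The AZA level was 28.3-fold and the CHQ level 35.5-fold above ELA. The paralogue Ndufa4 was at 15.34, 15.12, 15.39 and 15.53 on the same arrays, so relative to it the log2 difference of Ndufa4l2 was 4.55 with AZA and 4.74 with CHQ. Over the 6 settings, which differ in scaling, background correction or source of the values, these ran from 4.55 to 4.83 and from 4.74 to 5.04.

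Cox6b2 encodes the testis form of a subunit that faces cytochrome c at the outer side of complex IV. Its log2 level was 12.30 in ES, 12.52 in ELA, 14.60 in AZA and 14.97 in CHQ, which is 4.23-fold above ELA with AZA and 5.47-fold with CHQ. The common form Cox6b1 went from 13.72 and 13.56 in ES and ELA to 13.22 in AZA and 12.84 in CHQ. The isoform and its common counterpart therefore differed in opposite directions, by 2.08 and -0.35 with AZA and by 2.45 and -0.73 with CHQ. The difference between the 2 forms was at least 2.41 log2 units with AZA and at least 3.01 with CHQ in each of the 6 settings.

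Cox7b2, another testis form, was near the floor of the array, at 8.14 in ES, 7.26 in ELA, 8.36 in AZA and 8.72 in CHQ. Its lowest level was that of the ELA array, below ES by 0.88, and the treated arrays were 2.15-fold and 2.76-fold above ELA but only 0.22 and 0.58 log2 units above ES. The common form Cox7b was at 16.49, 16.27, 16.10 and 16.16. Cox8c, also a testis form, had the same low point in ELA, at 7.77, 7.04, 7.87 and 7.34, and its mean level was too low for a call in any comparison with ELA. At levels this low the values depend on the background correction. Between ELA and ES, Cox7b2 passed the size rule at the 75th percentile and with the spike-in. With AZA its call was lost with the spike-in, where its difference fell under 1, and without an offset and in the deposited table, where its mean level fell under 7.5, and in the deposited table its call with CHQ was lost as well.

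Cox7a1, the heart and muscle form of subunit 7a, separated the treatments. Its log2 level was 12.65 in ES, 12.38 in ELA, 13.42 in AZA and 12.16 in CHQ. The AZA array was the high one, 2.06-fold above ELA, and CHQ was 2.40-fold below AZA on the same slide and -0.22 from ELA. The call against ELA was lost with the spike-in and at the 75th percentile, and that between the treated arrays was kept in all 6 settings. The common form Cox7a2 was at 15.47, 15.40, 15.18 and 15.23, and the difference between the forms, CHQ against AZA, was -1.31 (from -1.10 to -1.32 over the 6 settings). Other muscle forms were barely detected. Cox8b was well above background on the AZA array only, at least 1.79-fold above ELA and at least 2.14-fold above CHQ. Cox6a2 was well above background on the treated arrays only, and AZA was at least 1.48-fold above ELA. These bounds hold for the main setting only. They take the lowest signal that was well above background, or the probe's own signal where higher, as the level of the dimmer array. With the spike-in, the AZA difference of Cox6a1 from ELA was -0.10 and that of Cox6a2 lay 0.20 above it. Cox4i2, the lung form of subunit 4, which like Ndufa4l2 is known to be induced in low oxygen, was at 8.97, 9.0, 9.41 and 8.58, and was not called in any comparison.

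**Figure D2:**
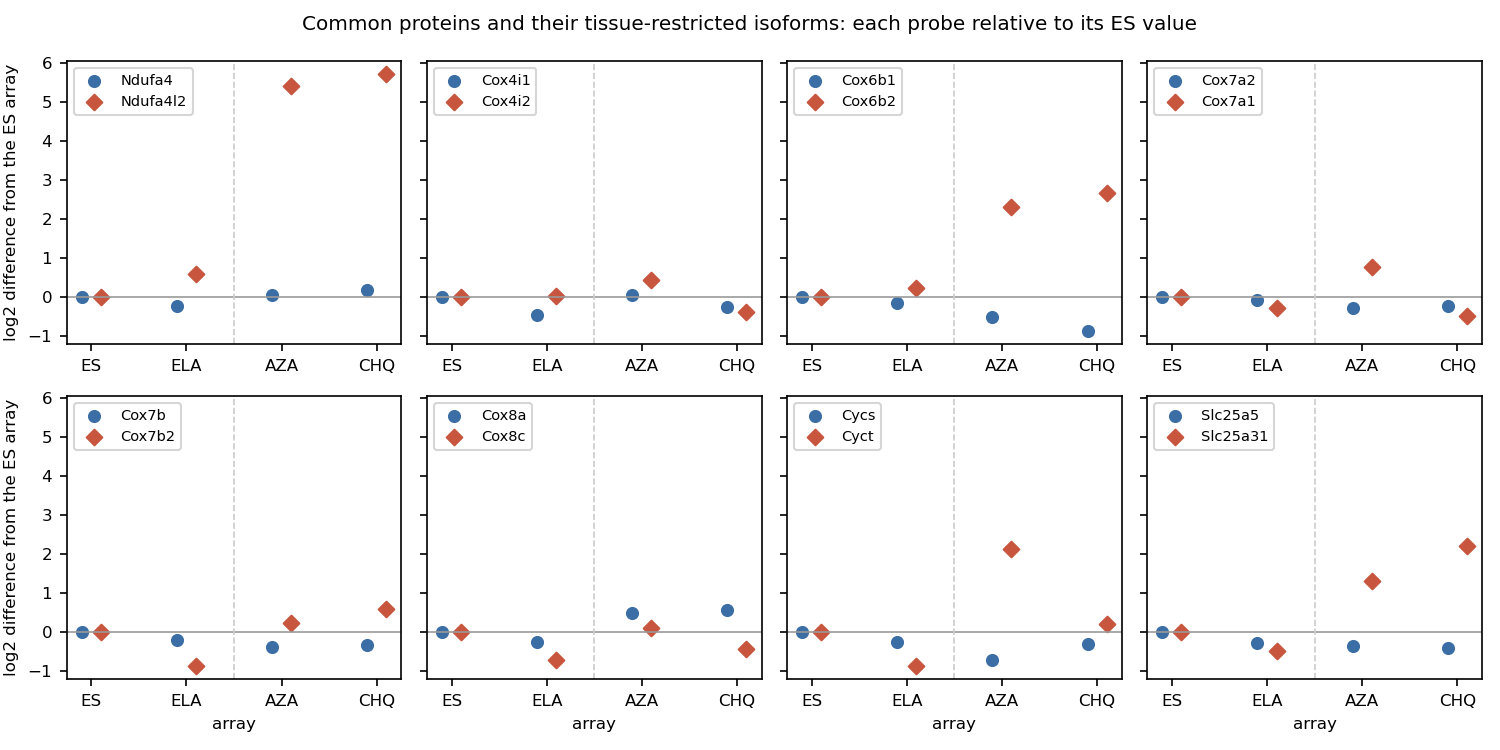
Each panel holds a common protein (blue circles) and its tissue-restricted isoform (red diamonds), with the 4 arrays on the horizontal axis and, on the vertical axis, the log2 difference of each probe from its own level on the ES array. The dashed line separates the slides. The isoforms Ndufa4l2, Cox6b2 and Slc25a31 lie above their counterparts on both treated arrays, Cyct and Cox7a1 stand highest on the AZA array, and Cox4i2 and Cox8c, which were not called, overlap the range of their counterparts.

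Isoform pairs also exist among proteins beside the complexes that the name rule does not take in, and 2 of them are given here, chosen after their values were seen. Cyct, the testis form of cytochrome c, was at 9.88 in ES, 9.01 in ELA, 12.01 in AZA and 10.08 in CHQ, while the somatic form Cycs was at 15.99, 15.73, 15.26 and 15.68. Cyct was called higher with both treatments, by 3.0 and 1.07, and was called lower in CHQ than in AZA, by -1.93. With the spike-in its difference with CHQ was 0.90 and no longer a call. Slc25a31, the testis form of the carrier that exchanges ATP for ADP, was not well above background in ELA (6.90). It was at 7.40, 8.70 and 9.60 in ES, AZA and CHQ. In the main setting it was at least 3.48-fold above ELA with AZA and at least 6.49-fold with CHQ. Its log2 differences from ELA were lowest with the spike-in, at 1.44 and 2.27. Its somatic counterpart Slc25a5 stayed between 15.16 and 15.58 on the 4 arrays.

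In complex I, Ndufs8, a core subunit that carries iron-sulphur clusters on the way to coenzyme Q, was at 12.84 in ES, 12.75 in ELA, 12.22 in AZA and 11.63 in CHQ. It was lowest on the CHQ array, 2.17-fold below ELA, and differed from ELA by -0.54 on the log2 scale with AZA. The NADH-binding subunit Ndufv1 differed from ELA by 0.44 with AZA and 0.51 with CHQ, and was not called. Its neighbour in the NADH-binding module, Ndufv2, differed by -0.15 and -0.17, and the large iron-sulphur subunit Ndufs1 by -0.22 and 0.21.

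The 29 accessory subunits of complex I had a median of 0.12 with AZA and 0.00 with CHQ, and 0 of them were called with either in the main setting, beside the shares of all genes given above. With CHQ, 1 (Ndufa5) was called lower at the 75th percentile and 5 with the spike-in. In the main setting the dimmer probe of Ndufa5 gave -1.10 with CHQ, beside -0.75, and would pass the size rule. By the brightest probes the widest accessory subunit was Ndufb6, in the membrane arm, at 0.80 and 0.99, where a dimmer probe gave 0.36 and 0.60. The acyl carrier protein Ndufab1 lay at the other end, at -0.76 and -0.84. Ndufb4 went from 15.81 in AZA to 15.10 in CHQ, the lowest complex I difference between the treated arrays at -0.72, and its other probe gave -0.89.

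In complex II all 4 subunits stayed within 0.5 of ELA by their brightest probes, while second probes gave 0.63 for Sdhc and -0.56 for Sdhb with AZA. Sdha was at 0.17 with AZA and 0.49 with CHQ, the iron-sulphur subunit Sdhb at -0.45 and -0.26, and the membrane anchors Sdhc and Sdhd at 0.13 and -0.18 with AZA and 0.00 and 0.02 with CHQ. Both assembly factors of this complex that the name rule takes in lay further from ELA. Sdhaf1, which helps to insert iron-sulphur clusters into Sdhb, was at 12.21, 12.13, 13.20 and 13.36, 2.09-fold and 2.34-fold above ELA, calls that were lost with the spike-in. Sdhaf2, which helps to attach the flavin to Sdha, was at 12.20, 12.04, 11.05 and 11.01, with differences of -0.99 and -1.03. The pair thus differed from ELA in opposite directions, and for each the arrays of one slide lay close together (0.16 and -0.04 between CHQ and AZA).

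In complex III the widest differences from ELA by the brightest probes were those of Uqcr10, at 0.79 and 0.81. By its brightest probe the treated arrays (16.12 and 16.14) lay slightly above the ES level of 15.82. Its second probe gave 0.86 and 0.80. The dimmest of its 3 probes gave 0.23 and 0.21, with the treated arrays (14.17 and 14.15) below ES (14.47). The Rieske iron-sulphur protein Uqcrfs1 was at -0.49 and -0.43, and the large core proteins Uqcrc1 and Uqcrc2 at 0.23 and 0.30 with AZA and at 0.10 and 0.10 with CHQ. Uqcr11 was the lowest with CHQ, at -0.48, and between the treated arrays the largest difference was -0.31, for Uqcrq.

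The common subunits of complex IV spread in both directions under treatment. Of the 11, 6 were higher and 5 lower with AZA in the main setting (4 and 7 at the 75th percentile, 2 and 9 with the spike-in), with Cox8a at 0.75, Cox5b at 0.71, Cox6a1 at 0.66 and Cox4i1 at 0.52 at one end and Cox6c at -0.43 and Cox6b1 at -0.35 at the other. The direction of Cox6a1 turned at the 75th percentile and with the spike-in (-0.04 and -0.10) and that of Cox4i1 with the spike-in (-0.04). The dimmer probe of Cox8a gave 1.10 with AZA and 1.09 with CHQ and would pass the size rule. With CHQ the range was from -0.73 for Cox6b1 to 0.83 for Cox8a in the main setting, and all 11 lay below ELA at the 75th percentile and with the spike-in. Probes of Cox7c differed in size, the brightest giving -0.26 and -0.49 and a dim one -0.99 and -1.21.

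By their brightest probes, most subunits of complex V lay below ELA on the treated arrays, by small amounts. Of its 15 subunits 12 were below ELA with AZA, with a median of -0.24, and 14 with CHQ, with a median of -0.35, and 0 were called in either, beside 11.4% and 11.9% of all genes called lower. With CHQ, 7 of the 15 were called lower at the 75th percentile (19.2% of all genes) and 8 with the spike-in (22.7% of all genes), and with AZA Atp5g3 alone was in both settings. The catalytic beta subunit Atp5b was the exception with CHQ in the main setting, at 0.24 (-0.67 at the 75th percentile and -0.74 with the spike-in), and stood at 18.04, 17.91, 18.03 and 18.15 on the 4 arrays. Its partner Atp5a1 was at -0.36 with AZA and -0.08 with CHQ. At the lower end with CHQ were Atp5k at -0.70, Atp5g3 at -0.67, Atp5o at -0.61 and Atp5j at -0.52. All 3 probes of Atp5k, a small subunit linked to dimers of the enzyme, were lower with CHQ, from -0.48 to -0.70. Some dimmer probes lay further below ELA than the brightest ones. That of Atp5c1 gave -0.88 with AZA and -0.95 with CHQ, beside -0.32 and -0.25. That of Atp5h gave -0.50 and -0.85, beside -0.07 and -0.35.

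The genes Atp5g1, Atp5g2 and Atp5g3 encode the same mature subunit of the c-ring, through which protons pass, and differed from each other. With AZA they were at 0.40, 0.40 and -0.47, and with CHQ at -0.41, -0.06 and -0.67. The positive values with AZA turned at the 75th percentile and with the spike-in, to -0.09 and -0.06 for Atp5g1 and to -0.31 and -0.26 for Atp5g2. Relative to Atp5g1, Atp5g3 was lower with AZA by -0.88 (from -0.82 to -0.96 over the settings). A second probe of Atp5g2 gave -0.04 with AZA and so did not follow the first. Between the treated arrays Atp5g1 was the lowest of complex V, at 16.65 in AZA and 15.84 in CHQ.

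How far the complexes lay from ELA depended on the scaling, while complex V stayed the lowest of them in both treatments. Under the E1A spike-in scaling, the medians with CHQ were -0.61 for complex I and -1.02 for complex V, and under scaling to the 75th percentile of the processed signal -0.48 and -0.96, beside -0.02 and -0.35 in the main setting. In those settings the bright genes had medians of -0.81 and -0.71, beside -0.77 and -0.66 for the bright subunits. The median of complex I lay above that of complex V by 0.30 to 0.38 with AZA and by 0.30 to 0.48 with CHQ in all 6 settings. That of the common complex IV subunits lay above complex V by 0.16 to 0.46 with AZA, and its sign relative to ELA turned, from 0.22 in the main setting to -0.40 and -0.37. Its place against complex I turned with it, from above (0.22 and 0.08) to below at the 75th percentile (-0.40 and -0.22) and with the spike-in (-0.37 and -0.21).

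**Figure D3:**
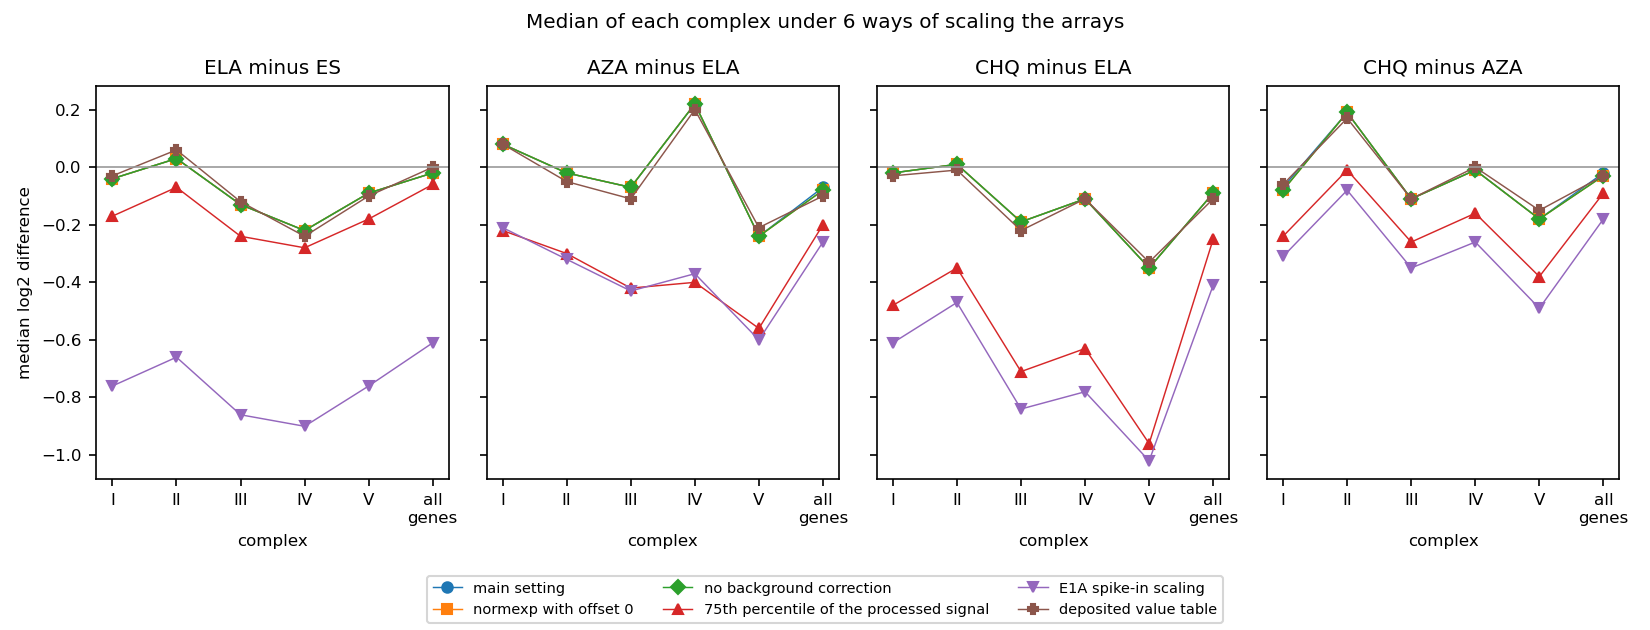
Points are the median log2 difference (vertical axis) of the subunits of each complex and of all genes, for the 4 comparisons and 6 settings. Complex IV is without the tissue-restricted isoforms, and lines join the points of one setting. In the treated arrays complex V is the lowest of the complexes in every setting, at -0.35 in the main setting and -1.02 with the E1A spike-in for CHQ against ELA.

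In the main setting the subunits varied less across the 4 arrays than all genes did. The distance between a gene's highest and lowest array had a median of 0.49 log2 units over 82 subunits. Over 19158 genes with enough signal it was 0.86, and 89.0% of subunits and 58.0% of those genes stayed within 1. Most subunits are bright, and this distance was not computed for bright genes alone. In every comparison more of the bright genes than of all genes lay within 0.5. With the spike-in the subunit medians were -0.78 for ELA against ES, -0.28 for AZA against ELA and -0.73 for CHQ against ELA. The differences of the 2 comparisons without a shared array, ELA against ES and CHQ against AZA, had a Pearson r of 0.06 and a Spearman rho of 0.02 across 79 subunits, beside 0.21 and 0.14 across 17735 genes. These describe genes, which are not independent replicates.

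Where a gene had more than 1 probe (26 of the 92), most probes had the same sign. All probes had one sign in 22 genes for ELA against ES, and in 21 for each of the other comparisons. Against ELA, the other probes were below the brightest one in 25 of 36 cases with AZA and in 25 with CHQ, by a median of -0.11 and -0.18, while within the slides the medians were -0.01 and -0.01. Opposite signs with AZA were seen in Ndufb5 (0.43 and -0.47), Ndufv3 (0.67 and -0.42), Ndufaf4 (0.38 and -0.28) and Ndufb11, where the dimmest of 3 probes gave -0.89 beside 0.14, as well as in Atp5g2 above. In each of these the dimmest probe gave the lowest value, and the part of the lower background of the second slide in this was not tested.

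Some probes of one gene overlap and are not the same sequence. The 6 probes of Atp5l, a subunit of the ATP synthase membrane part, include a pair given the same mm9 place, chr9:44721387-44721416 (minus strand), where capitals mark the bases that differ.
Atp5l first probe: ttgaatgttAttggaccatgtgtaaCAGga
Atp5l second probe: ttgaatgttCttggaccatgtgtaaAGAga
Counted from 1 at the 5′ end of the stretch, with the base of the first probe written first, the substitutions are A10C, C26A, A27G and G28A. The levels of the first were 16.76, 16.37, 16.11 and 16.39 and those of the second 16.50, 16.09, 15.94 and 16.18, and both were lowest in AZA. Genes of this kind have near-identical copies in the genome, so their values may hold signal from more than 1 transcript.

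Of the 13 subunits encoded in mitochondrial DNA, 12 were on the arrays by name. In the main setting 11 of them stayed within 1 log2 unit of ELA with both treatments. Their median was -0.17 for ELA against ES, 0.05 with AZA and -0.08 with CHQ. The exception in that setting was mt-Nd6, the complex I subunit that is the only one transcribed from the other strand of the mitochondrial genome. Its level was 11.61 in ES, 11.03 in ELA, 9.47 in AZA and 8.30 in CHQ. It was lower than ELA 2.96-fold with AZA and 6.64-fold with CHQ, and lower in CHQ than in AZA by -1.17 on the same slide. The difference from ELA kept its sign and size in each setting, from -1.57 to -1.70 with AZA and from -2.73 to -3.05 with CHQ. In contrast mt-Nd4 was higher by 0.68 and 0.92 and mt-Nd2 lower by -0.32 and -0.75. The median of the 12 with AZA was -0.73 at the 75th percentile and -0.76 with the spike-in. With CHQ it was -0.82 and -0.93, so no direction or size can be given for these genes as a group. The array design places 5 of the 12 probes (mt-Co2, mt-Co3, mt-Atp8, mt-Nd3 and mt-Nd4l) at a copy on chromosome 1 and 7, mt-Nd6 among them, on the mitochondrial genome, and signal from the copy cannot be told apart.

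**Figure D4:**
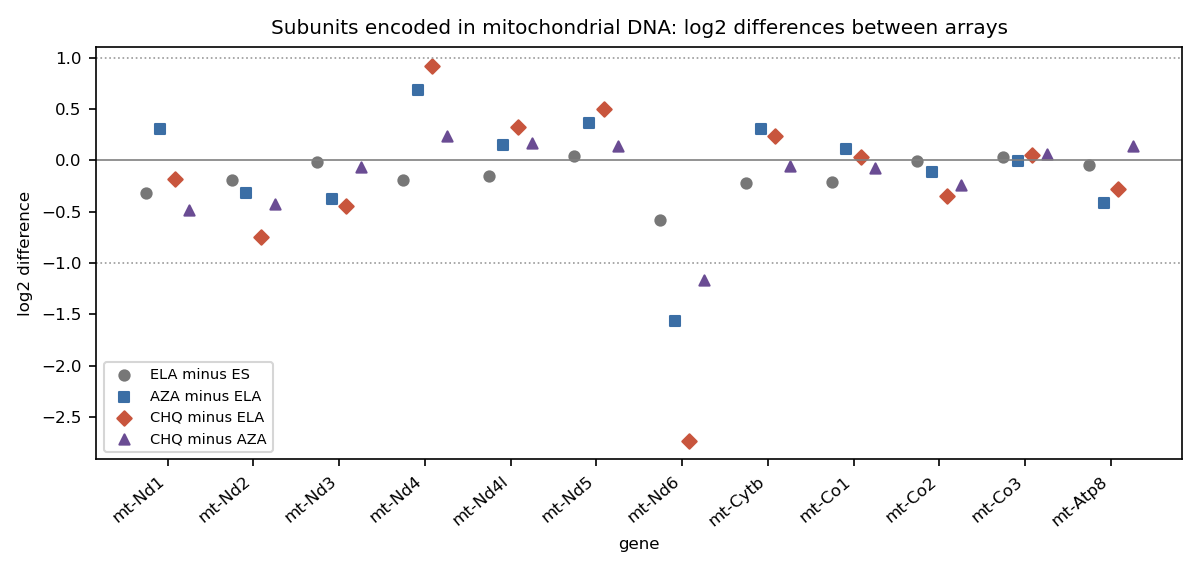
Log2 differences (vertical axis) of the 12 subunits encoded in mitochondrial DNA (horizontal axis), with 1 marker per comparison and dotted lines at a difference of 1. In the main setting, which is drawn, only mt-Nd6 passes a dotted line, at -1.57 for AZA against ELA, -2.73 for CHQ against ELA and -1.17 for CHQ against AZA.

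Other genes of the pathway were described from lists set down beside the name rule. Their counts stand against the shares over all genes, which were 14.3% (AZA) and 14.8% (CHQ) for higher calls and 11.4% (AZA) and 11.9% (CHQ) for lower ones. Of 10 electron carriers and subunits with other names, 1 was called higher with AZA (Cyct) and 3 with CHQ, namely Cyct, Etfa and Etfdh. A second probe of Chchd2, from the same list, gave -1.08 with CHQ. The proteins of Etfa and Etfdh feed electrons from fat oxidation to coenzyme Q. Etfdh was at 11.90, 11.66, 12.24 and 13.62, 1.95 above ELA with CHQ and 1.38 above AZA, and Etfa was at 1.12 with CHQ and 0.50 with AZA. The CHQ call of Etfa was lost at the 75th percentile (0.71) and with the spike-in (0.65), its second probe gave 0.70, and that of Cyct was lost with the spike-in. Of 20 assembly factors of complexes III and IV with enough signal, 1 was called higher with AZA (Cox18, 1.18) and 1 lower with CHQ (Cox20, -1.31). Of 8 assembly factors of complexes I and V, Timmdc1, which builds the membrane arm of complex I, was called lower with both, at -2.48 and -2.30, and no other was. Of 8 genes of coenzyme Q synthesis and 13 of the tricarboxylic acid cycle, 0 were called with either treatment.

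Among regulators of mitochondrial gene expression, Polg, the mitochondrial DNA polymerase, was called lower with AZA (-1.02) and CHQ (-1.03) by its brightest probe (-0.79 and -0.80 by the other). Pprc1, a coactivator of respiratory genes, was called lower with CHQ (-1.21). By their brightest probes the other 11 of 13 with enough signal were not called. Other probes gave -1.65 and -1.76 for Polg2 with AZA and CHQ, and -0.92 and -1.22 for Gabpb1. Nrf1 itself was at -0.83 with AZA and 0.15 with CHQ, and the lowest of its 3 probes at -1.65 and -1.13. Of 10 genes of pyruvate dehydrogenase and its kinases, Pdk4 and Pdk1, kinases that inhibit pyruvate dehydrogenase, were called higher with AZA (1.55 and 1.14) and Pdk4 with CHQ (2.00), and Pdk2 was called higher in ELA than in ES (1.06). Pdk1 fell short of a call at the 75th percentile (0.94) and with the spike-in (0.97), and Pdk2 with the spike-in (0.50) and by its second probe (0.72). Of 16 glycolysis genes, Pfkp was called lower in ELA than in ES (-1.14) and higher with both treatments (2.97 and 1.95), with a second probe at 0.19 and -0.50. Gpi1 was called higher with CHQ (1.07), a call lost at the 75th percentile (0.22) and with the spike-in (0.13). Other probes differed from ELA by more than 1 in Hk1 (2.20 with AZA), Tpi1 (-1.11 with AZA) and Ldha (-1.90 with AZA and -1.04 with CHQ). Of 7 uncoupling proteins and adenine nucleotide carriers, 2 were called higher with CHQ (Slc25a31 and Ucp1) and 1 lower (Ucp3, -1.26, with its other probe at -0.09), and 1 of 6 with AZA (Slc25a31, higher).

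Markers of other cell types were called on the treated arrays too. Of 4 primitive endoderm markers 3 had enough signal with CHQ and 2 were called higher, Gata6 (6.41 in ES, 6.69 in ELA, 8.06 in AZA and 9.89 in CHQ) and Sox17 (6.37, 6.76, 7.76 and 9.51), while 0 of the 1 with enough signal were called with AZA. Of 3 trophoblast markers Tfap2c alone had enough signal, at 12.65 in ES, 9.79 in ELA, 11.90 in AZA and 13.23 in CHQ, called lower in ELA than in ES (-2.86) and higher with AZA (2.11) and CHQ (3.44), so that both treated levels lay near that of ES, and Cdx2 and Elf5 stayed below 7 on all 4 arrays. Of 3 neural markers 2 had enough signal against ELA, of which Nes was called lower with AZA (-1.67) and CHQ (-1.24) and Sox1 was at -0.35 and -0.40. The naive markers were called higher in 7 of 7 cases with AZA and 6 of 7 with CHQ (medians of 4.09 and 3.05) by their brightest probes. The one not called with CHQ was Nanog, at 2.86 with AZA and 0.01 with CHQ, and its second probe gave -1.55 and -1.01. The part of these cells in the differences given above was not tested.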

How the data were processed

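Spot intensity came from Agilent Feature Extraction, version 10.7.3.1 per the file headers and 9.1 in the submitters' processing notes. The authors' deposited table gives log2 values after limma background correction and quantile normalisation. Here the mean spot intensity of 62976 spots per array was corrected with normexp (offset 50) on the local background median, quantile-normalised over the 4 arrays in limma 3.58.1 (R 4.3.3), and averaged over spots after control and outlier spots were left out. A gene was read from its brightest probe. With 1 array per group no p-value was computed. Calls needed a log2 difference of 1, a mean level of 7.5 and signal well above background on 1 array. 1 called gene stays in the counts and medians and is not reported here. The text names the other called genes, the extremes of each complex, catalytic subunits and the isoform sets. The members and lists were chosen with earlier results of these data known. Names were updated through RefSeq accessions (26582 probes matched). The number of arrays limits the precision. Calling was tested on simulated data.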

Additional observations from a re-analysis of the deposited data

How the results depend on the processing

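No paired analysis was possible because each group has 1 array, and a slide block could not be fitted for the same reason. With the E1A spike-in scaling the median of the genes was -0.79 for ELA against ES, -0.28 for AZA against ELA, -0.73 for CHQ against ELA and -0.31 for CHQ against AZA, and the calls were 11 (all lower), 6 (2 higher, 4 lower), 26 (3 higher, 23 lower) and 2 in that order, beside 0, 6, 8 and 1 in the main setting. With the 75th percentile of the processed signal the medians were -0.30 for AZA and -0.63 for CHQ against ELA, and the calls were 1 (Cox7b2, lower) for ELA against ES, 7 (4 higher, 3 lower) for AZA against ELA, with Cox7a1 lost and Atp5g3 and Cox4nb added, and 18 for CHQ against ELA. All 10 genes that this last setting added were lower with CHQ, and the 8 main calls were kept. A size rule of 0.5 gave 2, 19, 23 and 11 calls. With subunits only, CHQ against ELA had 5 calls. Without a filter on dim probes CHQ against AZA had 2. For the 50 named genes, 0 of 1200 recomputed differences turned a call's sign. Most of these differences were not calls in the main setting and so could not turn one. Signs of uncalled differences did turn, as for Cox6a1 with AZA, from 0.66 to -0.10 with the spike-in. Under the spike-in scaling Cox7a1, Cox7b2 and Sdhaf1 fell short of a call with AZA and Sdhaf1 with CHQ, at the 75th percentile Cox7a1 did with AZA, and without an offset and in the deposited table Cox7b2 did with AZA, and in the deposited table with CHQ too, its mean level there being under 7.5. Without an offset and in the deposited table Sdhaf2 was added as a lower call with AZA, and the split there was 4 higher and 2 lower. The causes were not tested. Dim probes such as those of Cox7b2 and Cox8c are limited by signal over background.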

Other observations

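By their current RefSeq symbols, 8 more genes (9 probes) would match the name rule but carry older names on the array. Among them Sdhaf4, an assembly factor of complex II, was at 12.29 in ES, 11.72 in ELA, 12.24 in AZA and 11.61 in CHQ, low in ELA and CHQ and high in ES and AZA. The brighter probe of Ndufaf5, an assembly factor of complex I, was at 9.58, 9.70, 8.58 and 8.76, lower by -1.12 with AZA and -0.95 with CHQ. The small complex V subunits Atp5md and Atp5mpl were lower with both treatments, at -0.47 and -0.46 with AZA and at -0.37 and -0.49 with CHQ, within the range of the complex V subunits named by the rule.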
